A study of Mus musculus with 6 samples.

Results

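Potassium channels set the resting potential of atrial muscle cells and end each action potential. The 10 genes described here encode the subunits of 5 potassium currents known from the mouse atrium, and they were taken by symbol from the 54093 genes of the table. They were measured by RNA-seq in right atria (RAs) at postnatal day 21 (P21) from wild-type C57BL/6 mice in 3 sham-operated libraries (sham 1 to sham 3) and 3 volume overload libraries (VO 1 to VO 3). VO was made at postnatal day 7 by a needle puncture that joined the abdominal aorta to the inferior vena cava, while the sham mice had surgery without that fistula. The sources used here do not say whether a library held 1 atrium or several, so p-values measure the spread between these libraries only.

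The acetylcholine-activated current, which slows the atrium after vagal stimulation, runs through channels built from Kcnj3 (GIRK1) and Kcnj5 (GIRK4). Kcnj2 (Kir2.1) and Kcnj12 (Kir2.2) carry the inward rectifier current that holds the resting potential. ATP-sensitive channels open when cellular ATP falls; each joins a pore, Kcnj11 (Kir6.2) or Kcnj8 (Kir6.1), to a sulfonylurea receptor, Abcc8 (SUR1) or Abcc9 (SUR2). Kcna5 (Kv1.5) carries the ultrarapid delayed rectifier current, and Kcnk3 (TASK-1) belongs to the tandem-pore channels, gives a background current and is prominent in atrial muscle.

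All 10 genes passed the filter of a mean of at least 1 FPKM (fragments scaled to gene length and library size) over the 6 libraries. Each value rested on 197 fragments or more, and the libraries held 15963082 to 17237903 fragments on genes. Atrial muscle genes were abundant in every library (Myl7, the atrial light chain of myosin, at 2586 to 8501 FPKM). In immune and adipocyte genes 2 of the 6 libraries stood apart. VO 1 held 152.6 FPKM summed over 7 immune marker genes, against 38.3 to 54.1 in the other 5 libraries. VO 3 held 392 FPKM summed over 5 adipocyte genes, against 3.50 to 7.72. It also held 13.1 FPKM summed over 6 neuron and glia genes, against 4.46 to 4.68 in the other 5 libraries. The sham libraries differed in ventricular genes, with a sum over 4 genes of 307.6 FPKM in sham 1 and 235.3 FPKM in sham 3. It was 120.9 FPKM in sham 2 and 92.7 to 142.9 FPKM in VO. That of 7 sinoatrial node genes ran from 15.2 FPKM in VO 1 to 35.3 FPKM in sham 2. The summed level of 8 cardiomyocyte genes was 10820.1 to 11570 FPKM in sham and 5622 to 8578 FPKM in VO, without overlap. In bulk RNA, fewer cells of a type and less RNA per cell cannot be told apart.

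The following sequences concern Kcnj5, Kcnj12, Kcnj11 and Kcnj3. The first set is the primers with which the study measured Kcnj5, Kcnj12 and Kcnj11 by qRT-PCR, where it reported each as significantly lower in VO. The study had picked them among genes that its own test of these same libraries called lower. Their direction here is therefore not independent evidence. The 6 primers were placed on GENCODE M21 transcripts (build GRCm38), and each lay inside a coding exon. The capital letter marks the single base that differs from the transcript.
Kcnj5 forward: gccggtgattctaggaatgct
Kcnj5 reverse: tcctgaacattAccgtggtgt
Kcnj12 forward: acccctacagcatcgtatcat
Kcnj12 reverse: gttgcactgaccgttcttctt
Kcnj11 forward: aagggcattatccctgaggaa
Kcnj11 reverse: ttgcctttcttggacacgaag
The Kcnj5 primers lay in exon 3, at chr9:32322994-32323014 and chr9:32322812-32322832, and span 203 bases of the transcript. The reverse primer carried the difference A12G, counted from 1 at its 5′ end with the primer's base first and the transcript's base, on the primer's strand, last. The Kcnj12 primers lay in exon 3, at chr11:61069206-61069226 and chr11:61069325-61069345, 140 bases apart from end to end, and the Kcnj11 primers in its single exon, at chr7:46099865-46099885 and chr7:46099776-46099796, 110 bases from end to end.

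The second set is the 250 bases before the start sites of Kcnj3 and Kcnj5, shown because both genes serve the same channel while their levels parted between the groups. They come from RefSeq (GRCm38.p6), which matched 7 of the 10 genes. Capitals mark TTTAAA, a run noticed after reading the sequences.
Kcnj3, chr2:55435720-55435969, plus strand: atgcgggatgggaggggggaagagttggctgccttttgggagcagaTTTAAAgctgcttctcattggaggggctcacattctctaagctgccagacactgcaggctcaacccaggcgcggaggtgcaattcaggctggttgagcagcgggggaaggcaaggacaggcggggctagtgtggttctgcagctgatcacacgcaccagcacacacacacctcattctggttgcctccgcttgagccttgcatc
Kcnj5, chr9:32344345-32344594, minus strand: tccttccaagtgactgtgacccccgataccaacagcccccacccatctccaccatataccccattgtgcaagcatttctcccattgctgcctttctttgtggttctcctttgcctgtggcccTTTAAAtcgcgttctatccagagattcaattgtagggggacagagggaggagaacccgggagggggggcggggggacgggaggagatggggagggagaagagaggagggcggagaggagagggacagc
TTTAAA, which reads the same on both strands, began 204 bases before the start of Kcnj3 and 128 bases before that of Kcnj5. Of 32851 RefSeq promoters of the same length, 12.1% hold it. Kcnj8 also held it, 117 and 43 bases before its start, while Kcnj2, Kcnj12, Abcc9 and Kcna5 did not. The other motifs searched, on both strands, were TATAAA (in 12.4% of all promoters), GATAAG (6.55%), GGTGTGA (3.33%) and TNAAGTG (10.1%). Neither window shown held any of them. The G and C content was 58.4% for Kcnj3 and 58.0% for Kcnj5, against a median of 52.4% over all promoters.

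The levels of the 10 genes spread widely, from Kcnj3 at 111 to 166 FPKM to Kcna5 at 3.79 to 9.05 FPKM. By the mean over the 6 libraries the order was Kcnj3, Kcnj5, Kcnk3, Kcnj11, Abcc8, Kcnj12, Abcc9, Kcnj2, Kcnj8 and Kcna5. Kcnj3, Kcnj5 and Kcnk3 were also the first 3 of all protein-coding genes with a symbol starting with Kcn. Kcnj3 stood above 98.0% of the 12627 tested genes and Kcna5 above 53.8%. Among neighbours in this order, only Kcnk3 with Kcnj11 and Kcnj11 with Abcc8 had ranges over the libraries that did not overlap. Kcnj12 was above Abcc9 in 4 of 6 libraries and Kcnj2 above Kcnj8 in 2 of 6, so these pairs had no settled order, while each of the other pairs of neighbours kept its order in all 6 libraries.

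**Figure D1:**
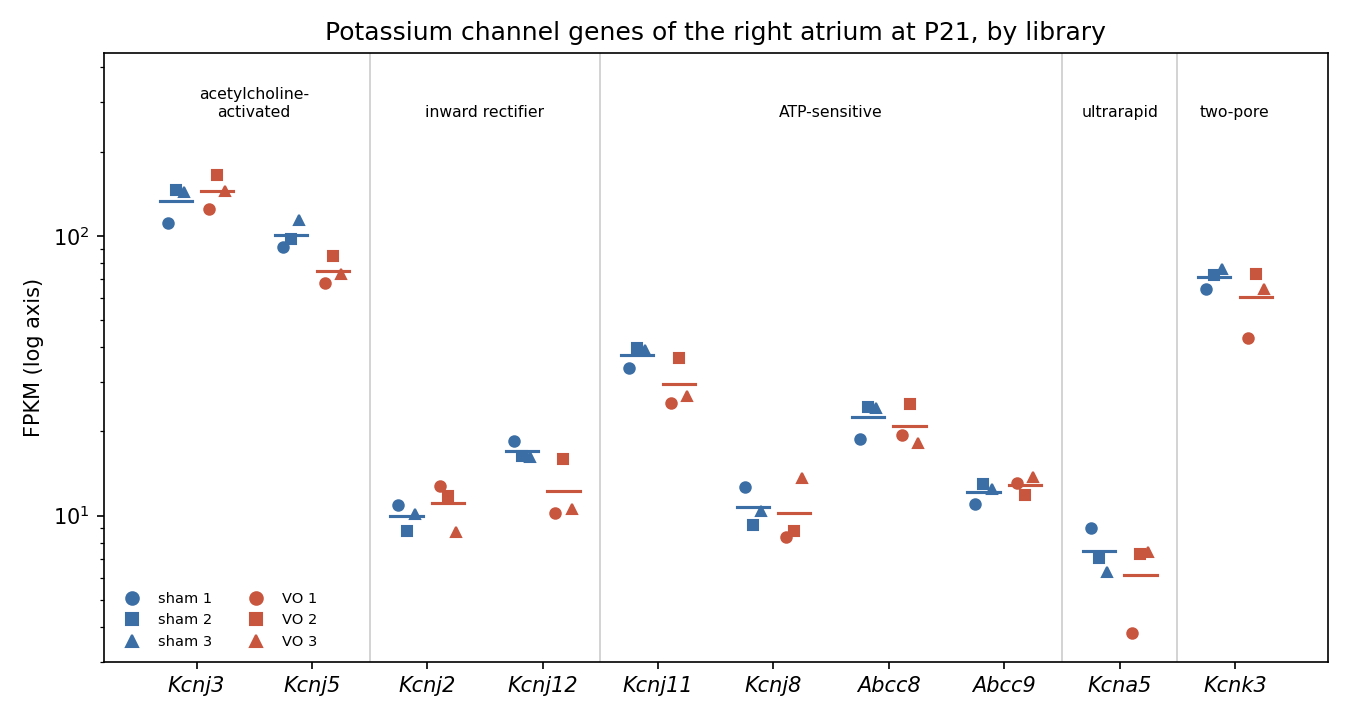
FPKM of the 10 genes in each library (log axis), grouped by current; symbols give the library, blue for sham and red for VO, and short lines the group means. The VO symbols of Kcnj5 and Kcnj12 lie below every sham symbol, and in the other 8 genes the groups overlap.

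Kcnj5 and Kcnj12 were the 2 genes of the 10 in which every VO library was below every sham library, and in none of the 10 did the VO libraries lie above. Of all 12627 tested genes, 12.9% were without overlap and lower in VO, and 21.2% were without overlap in either direction. The same 2 genes had an unadjusted p under 0.05 in limma's moderated test, both lower in VO. Over all tested genes 8.08% had such a p and were lower, and 3.89% had one and were higher. After Benjamini-Hochberg adjustment across the 12627 genes 0 of the 10 passed 0.05 (0.00792% of all tested genes did), and the adjusted p from limma ran from 0.404 to 0.854. Of the 10 genes 7 had a negative log2 fold change (VO minus sham) and 3 a positive one, with a median of -0.19, while over all tested genes 51.5% were negative and the median was -0.01. With TPM, a scaling that moved the median of all tested genes to 0.13, 5 were negative and 5 positive, and 0 had an unadjusted p under 0.05. With VO 1 left out, 1 gene had an unadjusted p under 0.05, and without sham 3 or VO 3 there were 0. A share of 2 in 10 is not far from the background of 12.0% in either direction.

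**Figure D2:**
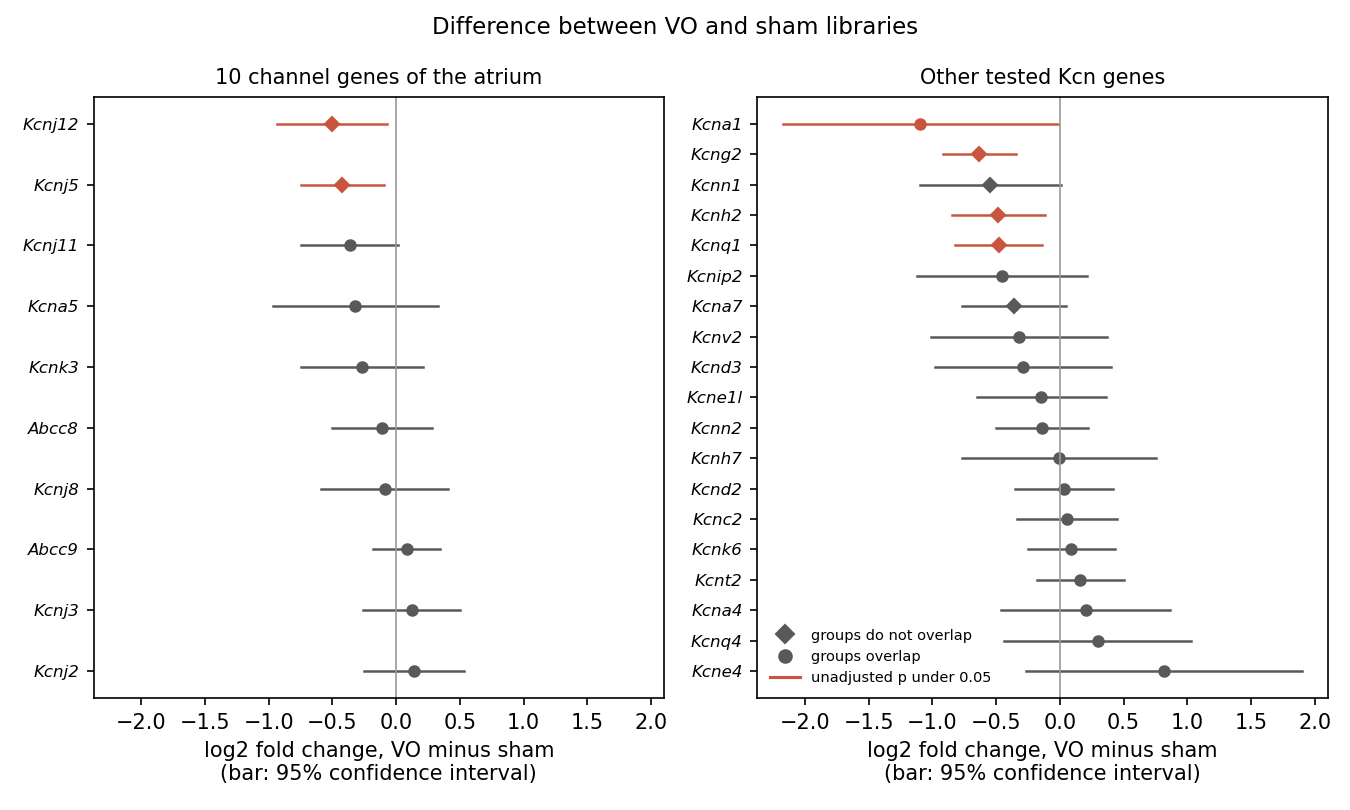
Log2 fold change (VO minus sham, log2 of FPKM + 0.1) with its 95% confidence interval from limma for the 10 genes (left) and for other tested Kcn genes (right); red marks an unadjusted p under 0.05 and diamonds mark groups without overlap. The intervals of Kcnj12 and Kcnj5 lie below 0, and the other 8 on the left include 0.

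Kcnj5 (ENSMUSG00000032034, chromosome 9, 32314707 to 32344350, minus strand), the GIRK4 subunit of the acetylcholine-activated channel, was read at 90.9, 97.5 and 114 FPKM in sham 1 to sham 3 and at 67.6, 84.6 and 73.2 FPKM in VO 1 to VO 3. The VO library nearest to sham, VO 2, was still below the lowest sham library. The means were 101 ± 11.9 FPKM in sham and 75.1 ± 8.69 FPKM in VO (SD, n = 3 libraries each), which puts VO at 74.5% of sham. The log2 fold change was -0.42 (95% confidence interval -0.75 to -0.10; limma, unadjusted p = 0.018, adjusted p = 0.404). It was -0.28 with TPM and -0.22 with quantile normalization, each with an unadjusted p over the threshold (0.0916 and 0.206 from limma).

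Its partner Kcnj3 (ENSMUSG00000026824, chromosome 2, 55435970 to 55598145, plus strand), the GIRK1 subunit, showed no such difference. It was read at 111, 145 and 143 FPKM in sham and at 125, 166 and 144 FPKM in VO. The groups overlapped, with sham 1 at the bottom and VO 2 at the top. The means were 133 ± 18.9 and 145 ± 20.3 FPKM (SD, n = 3 each), a log2 fold change of 0.12 (interval -0.26 to 0.50; limma, adjusted p = 0.730), or 0.26 with TPM and 0.35 with quantile normalization. It was near 0 (-0.0014) without sham 1.

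Because both subunits were measured in the same libraries, their balance does not depend on the scaling between libraries. The ratio of Kcnj5 to Kcnj3 FPKM was 0.816, 0.671 and 0.798 in sham and 0.541, 0.511 and 0.507 in VO. All 3 VO ratios were below all 3 sham ratios, and the VO ratios lay close together. On the log2 scale the balance was -0.40 ± 0.15 in sham and -0.94 ± 0.05 in VO (SD, n = 3 each), a difference of -0.55 (exact two-sided permutation test, p = 0.1, the smallest that 3 against 3 libraries can give, so the threshold of 0.05 was out of reach). Leaving out any 1 library kept the difference between -0.63 and -0.49. Kcnj3 made up 19.5 to 23.8% of the summed FPKM of all Kcn genes in sham and 28.2 to 28.3% in VO. That sum was itself 571.4 to 616.6 FPKM in sham and 441.0 to 585.9 FPKM in VO, while the FPKM of Kcnj3 overlapped between groups.

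The rest of the acetylcholine pathway was read from a list of 12 receptor, G protein and regulator genes, all of them tested. In VO, 6 of these were lower and 6 higher (median log2 fold change 0.02), and 1 had an unadjusted p under 0.05 (12.0% of all tested genes did). That gene was Adora1, the A1 adenosine receptor that opens the same channel, at 3.68 FPKM in sham and 2.68 FPKM in VO, with overlap between groups (limma, unadjusted p = 0.042, adjusted p = 0.411). Chrm2, the muscarinic receptor through which acetylcholine acts, had means of 78.8 FPKM in sham and 69.7 FPKM in VO (limma, adjusted p = 0.506). Gnai2, a G protein alpha subunit, had 63.6 and 70.7 FPKM, and Gnb1, a beta subunit, 47.6 and 50.9 FPKM, all with overlap. Gnb5, a beta subunit that pairs with Rgs6, was the 1 gene of the list without overlap (21.2% of all tested genes were). It had 11.9 FPKM in sham and 10.2 FPKM in VO and was named after its values were seen.

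Kcnj12 (ENSMUSG00000042529, chromosome 11, 61022564 to 61071131, plus strand), which encodes Kir2.2, was read at 18.5, 16.4 and 16.2 FPKM in sham and at 10.2, 15.9 and 10.5 FPKM in VO. VO 2 was 15.9 FPKM, just under sham 3, while VO 1 and VO 3 were well below. The means were 17.0 ± 1.29 FPKM in sham and 12.2 ± 3.21 FPKM in VO (SD, n = 3 each), a log2 fold change of -0.50 (interval -0.94 to -0.07; limma, unadjusted p = 0.028, adjusted p = 0.408). Without VO 2 it was -0.71, and without VO 1 it was -0.39 with an unadjusted p of 0.081 from limma. It was -0.37 with TPM.

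Kcnj2 (ENSMUSG00000041695, chromosome 11, 111066164 to 111076821, plus strand), which encodes Kir2.1, was read at 10.9, 8.83 and 10.1 FPKM in sham and at 12.7, 11.8 and 8.73 FPKM in VO. The groups overlapped, since VO 3 was the lowest of the 6 libraries and VO 1 the highest. The log2 fold change was 0.14 (interval -0.25 to 0.53; limma, adjusted p = 0.698), and it was 0.03 without VO 1 and 0.30 without VO 3.

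In sham, Kcnj12 was above Kcnj2 in each library, with log2 differences of 0.76, 0.88 and 0.67. In VO the log2 differences were -0.32, 0.43 and 0.27, and in VO 1 the order of the paralogs was reversed. The balance on the log2 scale was 0.77 ± 0.11 in sham and 0.13 ± 0.39 in VO (SD, n = 3 each), a difference of -0.64 without overlap (exact two-sided permutation test, p = 0.1, the smallest possible). With each library left out it lay between -0.80 and -0.42, and was smallest in size without VO 1.

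**Figure D3:**
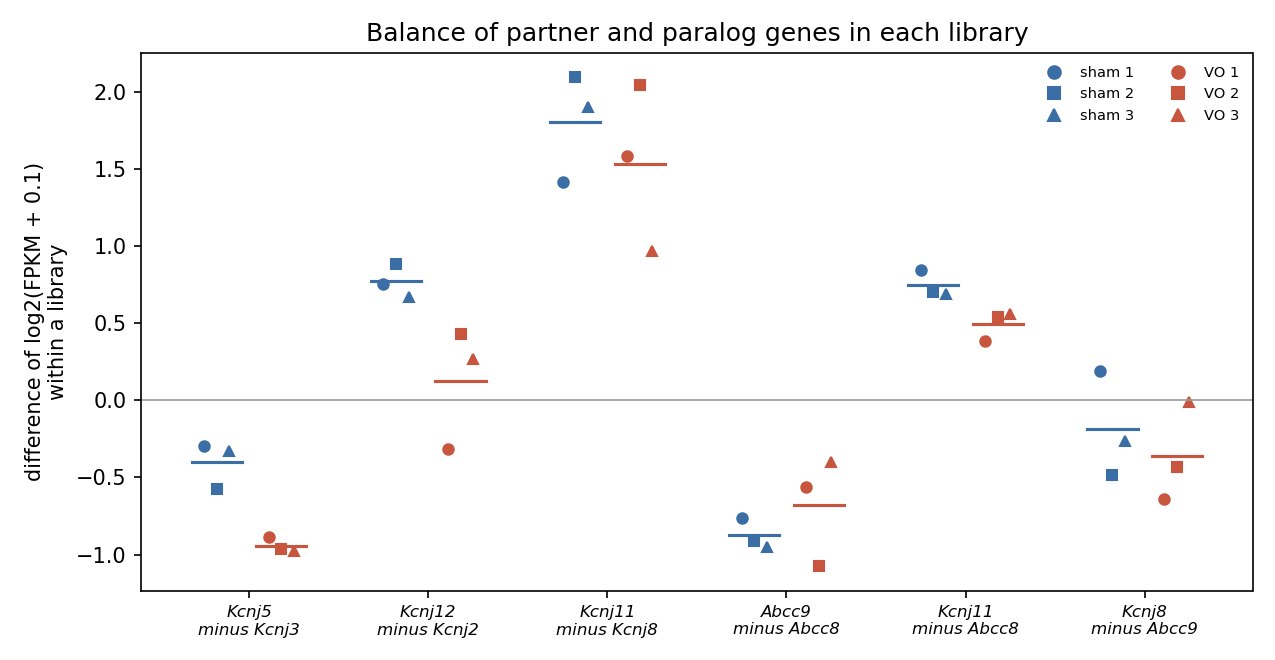
Difference of log2(FPKM + 0.1) between 2 genes within each library, for 6 pairs; blue symbols are sham and red symbols VO libraries, and short lines are group means. The groups do not overlap for Kcnj5 minus Kcnj3, Kcnj12 minus Kcnj2 and Kcnj11 minus Abcc8, and they overlap for the other 3 pairs. Kcnj11 minus Abcc8 and Kcnj8 minus Abcc9 were added after the values were seen. Kcnj5 and Kcnj12 were themselves without overlap, and the share of gene pairs at large without overlap was not counted.

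The ATP-sensitive channel genes lie in 2 tandem pairs. Kcnj11 (ENSMUSG00000096146, chromosome 7, 46093953 to 46100764) and Abcc8 (ENSMUSG00000040136, 46104523 to 46180033) are both on the minus strand with 3758 bases between them. Kcnj8 (ENSMUSG00000030247, chromosome 6, 142564837 to 142571614) and Abcc9 (ENSMUSG00000030249, 142587862 to 142702315) are both on the minus strand with 16247 bases between them. In mouse atria the pore Kir6.2 is known to pair with SUR1, while Kir6.1 with SUR2 is typical of vascular smooth muscle and pericytes.

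Kcnj11 was read at 33.8, 39.9 and 39.1 FPKM in sham and at 25.3, 36.5 and 26.7 FPKM in VO. VO 1 and VO 3 were below every sham library, while VO 2 was above sham 1. The means were 37.6 ± 3.29 FPKM in sham and 29.5 ± 6.099 FPKM in VO (SD, n = 3 each), a log2 fold change of -0.36 (interval -0.75 to 0.02; limma, unadjusted p = 0.0585, adjusted p = 0.414). Without VO 2 it was -0.53 (limma, unadjusted p = 0.0061), without VO 1 it was -0.26 (limma, unadjusted p = 0.156), and with TPM it was -0.23 (limma, unadjusted p = 0.241).

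Abcc8, its receptor, was read at 18.8, 24.5 and 24.2 FPKM in sham and at 19.4, 25.1 and 18.1 FPKM in VO. The groups overlapped, and the log2 fold change was -0.11 (interval -0.50 to 0.28; limma, adjusted p = 0.760), or 0.028 with TPM. Without VO 3 it was -0.017, and without VO 2 it was -0.25. The ratio of Kcnj11 to Abcc8, a pair added after the values were seen, was 1.80, 1.63 and 1.62 in sham and 1.30, 1.45 and 1.48 in VO, a log2 difference of -0.25 without overlap (exact two-sided permutation test, p = 0.1). It stayed between -0.29 and -0.20 with each library left out.

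Kcnj8 was read at 12.6, 9.27 and 10.4 FPKM in sham and at 8.37, 8.79 and 13.6 FPKM in VO, and its log2 fold change of -0.09 (interval -0.59 to 0.41; limma, adjusted p = 0.854) turned to 0.05 with TPM. VO 3 held the highest level and VO 1 the lowest. Abcc9 was read at 11.03, 13.0 and 12.5 FPKM in sham and at 13.1, 11.9 and 13.7 FPKM in VO, and its log2 fold change was 0.08 (interval -0.18 to 0.35; limma, adjusted p = 0.731), or 0.016 without sham 1, 0.14 without VO 2 and 0.22 with TPM. In both genes the groups overlapped.

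Since Kcnj8 and Abcc9 also mark pericytes, 7 other pericyte genes were set beside them. Their summed level was 109.6 to 117.2 FPKM in sham and 128.4 to 160.4 FPKM in VO, without overlap, with VO 3 highest. Most of that sum was Rgs5, at 64.6 to 73.2 FPKM in sham and 79.1 to 109.9 FPKM in VO, itself highest in VO 3. In VO, 5 of the 7 genes were higher and 2 lower, and 0 of the 7 was at 0 in every library. The summed level of 6 smooth muscle genes was 146.9 to 211.8 FPKM in sham and 60.3 to 112.7 FPKM in VO. That sum was mostly Acta2, smooth muscle actin; without it the sums were 10.1 to 10.9 FPKM in sham and 6.23 to 13.8 FPKM in VO, with overlap, and of the 5 tested genes 2 were higher and 3 lower. The part of either cell type in the levels of Kcnj8 and Abcc9 was not tested. The balance of Kcnj8 and Abcc9 (-0.17 in log2, exact two-sided permutation test, p = 0.6), of Kcnj11 and Kcnj8 (-0.27, p = 0.6 in the same exact test) and of Abcc9 and Abcc8 (0.19, p = 0.4 in the same exact test) overlapped between the groups.

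Kcna5 (ENSMUSG00000045534, chromosome 6, 126532551 to 126535412, minus strand), the Kv1.5 pore, was read at 9.05, 7.07 and 6.27 FPKM in sham and at 3.79, 7.27 and 7.39 FPKM in VO. VO 1 was far below the other 5 libraries, and VO 2 and VO 3 were within the sham range. The log2 fold change of -0.32 (interval -0.97 to 0.33; limma, adjusted p = 0.597) was -0.0091 without VO 1, so it rested on that library.

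Kcnk3 (ENSMUSG00000049265, chromosome 5, 30588170 to 30625271, plus strand), the TASK-1 channel, was read at 64.8, 72.4 and 76.3 FPKM in sham and at 43.1, 73.2 and 64.5 FPKM in VO. Here too VO 1 was the low library, with VO 2 inside the sham range and VO 3 just below it. The log2 fold change was -0.27 (interval -0.75 to 0.21; limma, adjusted p = 0.551) and -0.05 without VO 1. Kcnk3 is also expressed by brown fat cells, and VO 3 was the library with adipocyte genes, Ucp1 among them at 253.6 FPKM against 0 in the other 5 libraries; without VO 3 the log2 fold change of Kcnk3 was -0.34. The part of fat in the Kcnk3 level was not tested.

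**Figure D4:**
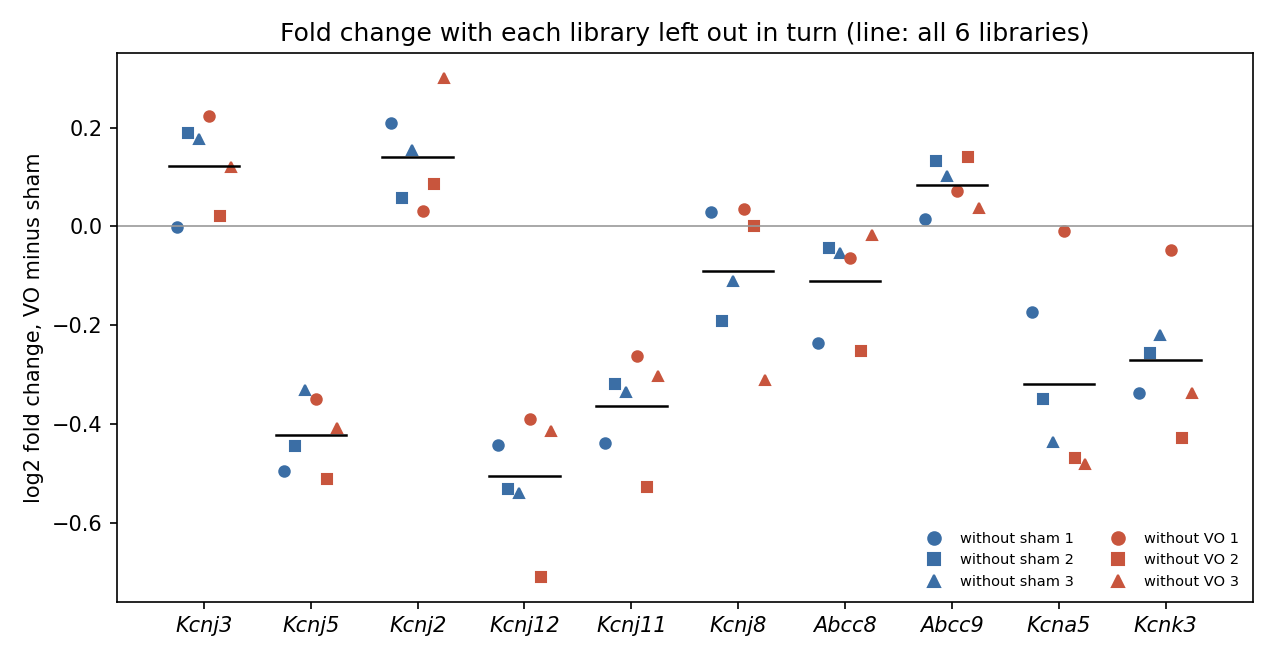
Log2 fold change (VO minus sham) of each gene with 1 library left out in turn (symbols: the library left out) beside the value with all 6 libraries (black line). Kcnj5, Kcnj12 and Kcnj11 stay below 0 in all 6 cases, while Kcna5 and Kcnk3 come close to 0 without VO 1.

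Overlapping genes could change some of these values, since the sources used here do not say whether strand was used in counting. Overlap here is that of whole genes from start to end, which need not include an exon. Kcnk3 overlaps Gm9899 on the opposite strand (mean 4.73 FPKM), Kcnj3 overlaps Gm26794 on the opposite strand (0.867 FPKM), and Abcc8 overlaps Gm45487 on its own strand (1.24 FPKM) and the antisense gene Gm45486 (0.218 FPKM). Abcc9 overlaps 5330439B14Rik, which was at 0. The other 6 genes overlap none in the table.

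All 8 cardiomyocyte genes used as markers were lower in VO (median log2 fold change -0.47), from -0.86 for Actc1 to -0.13 for Ryr2. Of these 8, 4 had an unadjusted p under 0.05, and the adjusted p from limma was 0.332 or more in each. Over all tested genes 51.5% were lower, and 8.08% were lower with such an unadjusted p. All 5 atrial muscle genes were lower too, with a median of -0.81. The levels of Kcnj5, Kcnj12, Kcnj11 and Kcnk3 were therefore also read within each library relative to each of the 8 genes. This comparison was chosen after the values were seen, and the sign depended on the reference. The other channel genes, Kcna5 and Kcnj3 among them, were not read this way. For Kcnj3 the log2 fold change was 0.12, while all 8 references were lower in VO. Kcnj5 was lower in VO relative to 3 of the 8 and higher relative to 5, from -0.30 against Ryr2, the calcium release channel, to 0.43 against Actc1, cardiac actin, both without overlap (exact two-sided permutation tests, p = 0.1 each). Kcnj12 was lower relative to 4 and higher relative to 4, from -0.38 to 0.35, with overlap for all 8. These counts include differences near 0. Examples are Kcnj5 against Actn2 (0.00019) and Myh6 (-0.028), and Kcnj12 against Tnni3 (0.0074). Kcnj11 was lower relative to 2 and higher relative to 6, from -0.24 to 0.49, without overlap against the same pair, Ryr2 and Actc1. Kcnk3 was lower relative to 1 and higher relative to 7, from -0.14 to 0.59, and its groups did not overlap against Actc1 and Tnnt2, cardiac troponin T. Whether the amount of muscle RNA has a part in the levels of the channel genes was not tested.

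The other potassium channel genes put these 10 in context. Of 85 other protein-coding genes with a symbol starting with Kcn, 76 were above 0 in at least 1 library and 20 were tested. In VO, 13 of the 20 were lower and 7 higher (median log2 fold change -0.14). With TPM 11 were lower and 9 higher (median -0.0091), and with a filter of 0.1 FPKM, which let 47 genes in, 17 were lower and 30 higher (median 0.16). Of the 20, 4 had an unadjusted p under 0.05, all lower (8.08% of all tested genes were), and 0 an adjusted p under 0.05. The groups did not overlap in 5 of the 20, all lower in VO, beside 12.9% of all tested genes without overlap and lower and 21.2% in either direction.

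Kcng2, a modulatory subunit that forms no channel on its own and the highest of the 20, was read at 67.9, 72.6 and 60.0 FPKM in sham and at 42.9, 47.0 and 39.4 FPKM in VO. Each VO library was well below each sham library, and the log2 fold change was -0.63 (limma, unadjusted p = 0.0012, adjusted p = 0.284). Kcnh2, the pore of the rapid delayed rectifier, had 53.5 ± 4.11 FPKM in sham and 38.6 ± 7.31 FPKM in VO (SD, n = 3 each; log2 fold change -0.48; limma, adjusted p = 0.404). Kcnq1, the pore of the slow delayed rectifier, had 16.2 ± 0.546 and 11.7 ± 2.07 FPKM (SD, n = 3 each; log2 fold change -0.48; limma, adjusted p = 0.404), and neither Kcnh2 nor Kcnq1 overlapped between groups. The remaining gene with an unadjusted p under 0.05 was Kcna1, with overlap, and Kcna7 and Kcnn1 were the remaining genes without overlap.

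Of 14 genes listed as auxiliary subunits of voltage-gated channels, 3 were tested and 0 had an unadjusted p under 0.05. Kcnip2, the KChIP2 partner of the transient outward channel, had 22.7 ± 2.06 FPKM in sham and 17.5 ± 6.74 FPKM in VO (SD, n = 3 each), with VO 1 at 10.4 FPKM. Kcne1l had 1.93 and 1.73 FPKM and Kcne4 0.773 and 1.57 FPKM, with overlap in both. Of 12 genes listed as scaffold or trafficking partners, 9 were tested, 4 lower and 5 higher, with a median of 0.0025; 3 had an unadjusted p under 0.05, all lower and without overlap (8.08% and 12.9% of all tested genes). With TPM 3 were lower and 6 higher, the median was 0.14, and 1 of the 3 with such a p was higher. Among them were Cav3, caveolin-3 of the muscle membrane (72.0 FPKM in sham, 39.4 FPKM in VO), and Actn2, alpha-actinin of the Z-disc (353 and 265 FPKM), with adjusted p from limma of 0.344 and 0.410. Both were picked by the study on these libraries. Fhl1 (57.7 and 61.1 FPKM), Ywhab (53.9 and 58.6 FPKM) and S100a10 (38.2 and 40.7 FPKM) overlapped between groups.

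For the gene with the highest mean in each current, the tested genes with the most similar pattern were found by the root mean square difference of centred log2 values over the 6 libraries. Closest to Kcnj3 were Arhgef40, Ralgapa2 and Caskin2 (0.042 to 0.049). Close to Kcnj11 were Trim55, which encodes a sarcomere protein, and Pip4k2c (both 0.046). Closest to Kcnj12 were Lamb3, Asb18 and R3hcc1 (0.060 to 0.080), to Kcnk3 Nr3c2, AI506816 and Rhobtb1 (0.043 to 0.045), and to Kcna5 Gm12251, D830013O20Rik and C1qbp (0.061 to 0.081). Among the 10 channel genes themselves the closest pair was Kcnj5 and Kcnj11 (0.108). How close the nearest genes lie for genes at large was not tested, so these names describe similar patterns only.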

How the data were processed

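RNA-seq of right atria in 3 sham and 3 VO libraries was analysed. The authors aligned paired reads with HISAT2 (2.0.5), counted them per gene with featureCounts (1.5.0-p3) and deposited FPKM values; GRCm38 and mm10 are the builds in the submitters' processing notes. The 1 incomplete line of the table was left out. Each FPKM times gene length was a whole multiple (within 0.01) of 1 step per library in 100% of values above 0, which returned the fragments. Median-of-ratios factors were 1 in each library, so the deposited FPKM had been scaled across libraries before.

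Genes with a mean of at least 1 FPKM were fitted on log2(FPKM + 0.1) with limma 3.58.1 in R 4.3.3 (lmFit, eBayes with trend), comparing VO with sham and no covariate. The 12627 two-sided p-values were adjusted by Benjamini-Hochberg, and the threshold was 0.05. Fold changes on this scale understate those of low genes. The authors' DESeq2 test of counts was not repeated. Balances between 2 genes were compared by exact permutation tests. The code was tested on simulated data. Start and end were the same as in GENCODE M21 for 98.4% of 54039 shared genes and for all 10 channel genes.

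The members and lists were chosen with earlier results of these data known. Named were all 10 members; of other Kcn genes the 5 highest and those with an unadjusted p under 0.05 without overlap; list genes with an unadjusted p under 0.05 and up to 3 others by level; and the 3 closest genes in pattern to the highest gene of each current. Alternatives were other pseudocounts (1, 0.01), filters (0.1, 5, none) and scalings, eBayes without trend or with robust variance, voom on the fragments, a replicate block, and each library left out. Some gene pairs were added after seeing the data. The listed name Kcne5 is a synonym of Kcne1l in RefSeq and was counted once. Some genes that these rules name are not reported here.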

Additional observations from a re-analysis of the deposited data

How the results depend on the processing

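Each channel gene had 197 fragments or more per library, and an exact test of 3 against 3 libraries cannot give a p under 0.1. In 18 alternatives 0 of the 10 channel genes had an adjusted p under 0.05 from limma, and Kcnj5, Kcnj12, Kcnj11, Kcna5 and Kcnk3 kept a negative log2 fold change in each. The causes of the differences below were not tested. Of the 10 genes, 2 had an unadjusted p under 0.05, which became 0 with TPM, 1 with quantile normalization and 0 to 3 with 1 library left out (0 without sham 3 or VO 3, 1 without sham 1, sham 2 or VO 1, and 3 without VO 2). The log2 fold change of Kcnj8 was 0.047 with TPM, 0.029 without sham 1, 0.036 without VO 1, 0.0017 without VO 2 and -0.31 without VO 3, that of Abcc8 was 0.028 with TPM, and that of Kcnj3 was -0.0014 without sham 1 and at most 0.22 without any other library. Among gene balances, Kcnj11 minus Kcnj8 ran from -0.53 without VO 2 to 0.0071 without VO 3, Kcnj8 minus Abcc9 from -0.35 without VO 3 to 0.014 without sham 1, Abcc9 minus Abcc8 from 0.055 without VO 3 to 0.39 without VO 2, Kcnj5 minus Tnnt2 from 0.023 without sham 1 to 0.28 without sham 3, Kcnj12 minus Tnnt2 from -0.0072 without VO 1 to 0.20 without VO 3, Kcnj11 minus Tnnt2 from 0.079 to 0.31 and Kcnk3 minus Tnnt2 from 0.18 without sham 1 to 0.39. With another reference than Tnnt2 the sign turned for Kcnj5 with Myh6 (-0.028), Ttn (-0.13) and Ryr2 (-0.30), for Kcnj12 with Myh6 (-0.11), Actn2 (-0.081), Ttn (-0.21) and Ryr2 (-0.38), for Kcnj11 with Ttn (-0.070) and Ryr2 (-0.24), and for Kcnk3 with Ryr2 (-0.14). Over the other Kcn genes the count of 4 with an unadjusted p under 0.05 ran from 2 without sham 2 to 7 without VO 2. In the acetylcholine list the count of 1 became 0 with a mean FPKM of at least 5, 0 with no filter, 2 with TPM (both higher in VO, while the 1 was lower) and 0 to 1 with 1 library left out (higher without VO 1 and without VO 2, lower without sham 2 and without VO 3, and 0 without sham 1 or sham 3), and in the auxiliary list the count of 0 became 0 to 2 (2 without VO 2).

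Over all tested genes, 1511 had an unadjusted p under 0.05 (855 without sham 1 to 1998 without VO 2) and 1 an adjusted p under 0.05; the latter became 2 with a pseudocount of 1, 3 with a mean FPKM of at least 0.1, 3 without trend, and 0 with quantile normalization, with robust variance and with any library left out. Of the genes with an unadjusted p under 0.05, 1020 were lower and 491 higher in VO, and with TPM 486 were lower and 1085 higher.

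With the replicate number as a block, 932 genes had an unadjusted p under 0.05, 0 an adjusted one, and of the 10 channel genes 3 had an unadjusted p under 0.05. The numbers were not taken as pairs: deviations from the group means of same-numbered libraries correlated across genes at -0.11, 0.011 and -0.029, and 0 of 6 libraries were nearest to their own number.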
